A study of Mus musculus with 88 samples.

Results

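The replication-dependent histone genes were the 70 genes of the mesoderm and endoderm expression tables whose GRCm38 symbol starts with Hist1h, Hist2h, Hist3h or Hist4h, out of 53697 genes in the mesoderm table and 54393 in the endoderm table. They comprise 6 genes of the linker histone H1, 20 of H2A, 19 of H2B, 12 of H3 and 13 of H4. By the GENCODE annotation of GRCm38, 56 of them lie on chromosome 13, 10 on chromosome 3, 3 on chromosome 11 and 1 on chromosome 6. Hist1h2aj, Hist1h2al and Hist3h2bb-ps are annotated as pseudogenes and the other 67 as protein coding.

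The core histones H2A, H2B, H3 and H4 form the protein spool around which nuclear DNA is wound, and H1 binds the DNA between spools. Most of this protein is made in S phase from clustered, intron-poor genes whose mRNAs end in a conserved stem-loop instead of a polyA tail; the stem-loop is bound by Slbp and the message is destroyed when DNA synthesis stops. Mouse embryonic stem (ES) cells cycle fast and spend much of the cycle in S phase. MTF2 and JARID2 are accessory subunits of PRC2, the complex that methylates histone H3 at repressed genes.

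Libraries came from ES cells kept in serum with LIF as undifferentiated (UD) monolayers, and from monolayers taken 5 h, 24 h and 48 h into a protocol that directs them to mesoderm or to endoderm. In each of the 2 series, WT, Mtf2 null and Jarid2 null cells were sampled at the 4 times in duplicate, which gave 48 libraries. No differentiation factor was added to the UD groups. Cells for the mesoderm series received Activin A, BMP4, CHIR99021 and FGF2 for the first day and then BMP4 with A-83-01, and cells for the endoderm series received Activin A, CHIR99021 and FGF2 and then Activin A with DM3189. RNA was depleted of rRNA, not selected for polyA, so mRNAs without a tail were kept.

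Several features limit these groups as a model. The labels give strain E14 for every library, but the methods name Pcl1-3 WT, JM8 and J1 ES cells as the matched parents of the Mtf2, Jarid2 and Eed null lines, beside E14 WT cells. Genotype and parental line therefore cannot be told apart in the comparisons with WT. The Mtf2 null line carries a gene trap at both alleles, each genotype was 1 line, and the duplicates were technical, so p-values measure only the spread between these libraries. The targeted gene followed the label for Mtf2, at 205 to 508 CPM (counts scaled to the same library total) in the 16 WT libraries and 30.1 to 38.1 in the 16 Mtf2 null libraries. Jarid2 stood at 307 to 660 CPM in WT and 189 to 622 in Jarid2 null libraries, and whether its reads lie in the deleted part is not shown by gene counts, so this is no check of that label. The 4 definitive endoderm markers Sox17, Foxa2, Cxcr4 and Cer1 together reached 0.779 and 0.846 CPM in WT endoderm libraries at 48 h, against 1368 and 1305 for the 8 pluripotency markers. The 5 mesoderm markers summed to 7.31 and 7.65 CPM in WT mesoderm libraries at 48 h, beside 1905 and 1938 for pluripotency. In bulk RNA, fewer cells of a type and less RNA per cell cannot be told apart. The column names of both Jarid2 null endoderm libraries labelled 48 h give an earlier hour, with the library numbers of the labels. The time of these libraries is therefore uncertain.

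The 3′ stem-loop was looked for first. A search of the transcripts, on the gene's strand, for GG, any 2 letters, CTTTT, any 1 letter, AG, any 2 letters and CC found this run after the stop codon in 44 of 70 histone genes (62.9%), against 28 of 21834 other genes with a protein-coding transcript (0.128%) searched over the whole transcript. The share was 4 of 6 for H1, 11 of 20 for H2A, 10 of 19 for H2B, 8 of 12 for H3 and 11 of 13 for H4. The form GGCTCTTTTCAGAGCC was found in 26 of the genes. Transcripts whose annotation ends at the stop codon cannot show it. The stem-loops of the members on which the results turn are shown from GENCODE M21 transcripts, 5′ to 3′ on the gene's strand, with the stem-loop in capitals. Those of Hist1h2bm and Hist1h4i lie at chr13:21722506-21722521 (+) and chr13:22040966-22040981 (-) of GRCm38.
Hist1h2bm: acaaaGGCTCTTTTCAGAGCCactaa
Hist1h4i: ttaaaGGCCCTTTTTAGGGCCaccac
Hist1h2bg: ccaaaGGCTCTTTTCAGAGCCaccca
Hist1h3e: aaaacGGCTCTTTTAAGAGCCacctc
Hist1h4n: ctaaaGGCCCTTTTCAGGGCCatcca
Hist2h2aa1: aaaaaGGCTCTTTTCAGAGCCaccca

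RefSeq promoters of GRCm38.p6, taken from 250 bases before to 50 bases after the start, were found for 62 of 70 genes. The octamer ATTTGCAT, searched on both strands, stood in 7 of 18 H2A and 6 of 16 H2B promoters, in 0 of the H1, H3 and H4 promoters, and in 1.7% of 26963 other promoters. TATAAA was found in 35 of 62 (56.5%, against 14.1%) and CCAAT in 53 of 62 (85.5%, against 37.8%), though in only 3 of 12 H4 promoters. The 150 bases before the start are shown for Hist1h2bm (chr13:21721894-21722043, +) and Hist1h4i (chr13:22041363-22041512, -), because these genes moved in opposite directions in every Mtf2 null comparison. Capitals mark ATTTGCAT, TATAAA and CCAAT on either strand.
Hist1h2bm: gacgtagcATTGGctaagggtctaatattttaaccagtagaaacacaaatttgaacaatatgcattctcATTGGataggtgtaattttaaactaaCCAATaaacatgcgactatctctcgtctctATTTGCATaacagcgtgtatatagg
Hist1h4i: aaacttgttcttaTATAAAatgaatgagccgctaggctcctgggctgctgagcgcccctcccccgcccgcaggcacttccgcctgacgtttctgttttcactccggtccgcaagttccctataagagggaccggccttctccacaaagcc

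The genes are near copies of each other, and this limits what a read can say about 1 of them. Of the 75-base words in their transcripts, the length of a sequenced read, fewer than 50% were found in no other gene for 29 members, and at least 90% for 11. Hist1h2ao and Hist1h2ap, Hist1h2bq and Hist1h2br, Hist1h4m and Hist1h4n, and Hist2h2aa1 and Hist2h2aa2 have the same coding sequence. Salmon divides a read that fits several genes among them. Differences between such copies are therefore reported as uncertain. The clearest case is Hist1h2al (chr13:51202727-51203065, -), which over 339 aligned bases differed from Hist2h2aa2 on chromosome 3 at 2 positions. Both stretches with a difference are given with 20 bases on each side and the differing base in capitals.
Hist1h2al, bases 100 to 140: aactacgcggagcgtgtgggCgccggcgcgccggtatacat
Hist2h2aa2, same stretch: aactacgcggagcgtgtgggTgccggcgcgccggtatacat
Hist1h2al, bases 196 to 236: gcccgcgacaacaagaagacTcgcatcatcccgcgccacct
Hist2h2aa2, same stretch: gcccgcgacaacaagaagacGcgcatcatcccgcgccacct

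Histone genes took between 0.653% and 1.85% of the counts of a directed library, with a median of 1.00% over the 48 libraries. Of these counts, H4 held a median of 23.8%, H2B 21.5%, H1 18.4%, H2A 18.1% and H3 17.9%. A mean of at least 100 CPM was reached by 43 members and 18 stood between 10 and 100 CPM. Another 6 lay between 1 and 10 CPM and 3 under 1 CPM, and none was at 0 in every library. The 10 most abundant members held 37.6% of the histone counts.

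Among the linker histones, Hist1h1d had a mean of 596 CPM, Hist1h1c 475 and Hist1h1a 472. Per kb of exon the order changed, because the annotated Hist1h1d exons span 7425 bases: Hist1h1a stood at 637 CPM per kb, Hist1h1c at 305 and Hist1h1d at 80.2. The leading H2B gene was Hist1h2bg (447 CPM, 724 per kb), followed by Hist1h2bq at 307 CPM and Hist1h2bb at 258. Hist2h2aa1 led the H2A genes at 317 CPM (540 per kb), before Hist1h2ap at 275 and Hist1h2ab at 239. Among H3 genes Hist1h3e was at 309 CPM (370 per kb), Hist2h3c2 at 216 and Hist1h3b at 206. Hist1h4d led the H4 genes at 438 CPM, Hist1h4n followed at 413 and Hist1h4h at 316. Per kb, Hist1h4n had 960 CPM and Hist1h4d 385.

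At the low end stood genes known from the germ line: Hist1h1t, the testis linker histone, with a mean of 3.70 CPM, Hist1h2aa with 2.40 and Hist1h2ba with 2.11, which encode the testis forms of H2A and H2B. The lowest means belonged to Hist1h2aj (0.176 CPM), Hist1h4m (0.269) and Hist2h3c1 (0.591), each with under 12% of its 75-base words to itself. Hist1h2aj was too low to be tested in the UD comparison or within either series, and Hist1h4m in the UD comparison. This left 68 members among 17155 genes in the UD comparison and 69 among 18361 (mesoderm) and 19261 (endoderm). A joint fit of all 48 libraries, used for comparisons between series, tested all 70.

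The same genes could be followed in the libraries of the series made from embryoid bodies (EBs), whose labels give polyA RNA. In 24 bulk EB libraries the histone genes held 0.908% to 1.75% of CPM (median 1.31%), and the median was not below that of the rRNA-depleted libraries. A polyA selection of the bulk EB libraries is not given in the methods. Lines, culture and protocol differ from those of the directed libraries, and whether polyA RNA was selected was not tested. In 16 single-cell libraries, made with primers that carry molecular identifiers, they held 0.0282% to 0.0673% of the counts (median 0.0468%). The leading members differed there too. Hist1h2ao and Hist1h2ap, which have the same coding sequence, held 13.4% and 12.1% of the single-cell histone counts. Hist1h1a held 0.211%, against 4.31% in the directed libraries.

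Against this background the first comparison asked how histone mRNA moved as WT cells left the undifferentiated state. In the mesoderm series the histone share of the 2 WT libraries was 1.66% and 1.58% in UD cells, 1.41% and 1.23% at 5 h, 0.978% and 0.839% at 24 h, and 0.968% and 0.925% at 48 h. The 48 h share was 0.584 times that of UD cells, and the groups did not overlap. In the endoderm series the WT share was 1.204% and 1.365% in UD cells, 0.890% and 1.04% at 5 h, 0.722% and 0.717% at 24 h, and 1.03% and 1.25% at 48 h. The share at 48 h was 1.59 times that at 24 h with no overlap, and the UD and 48 h libraries overlapped (ratio 0.889).

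**Figure D1:**
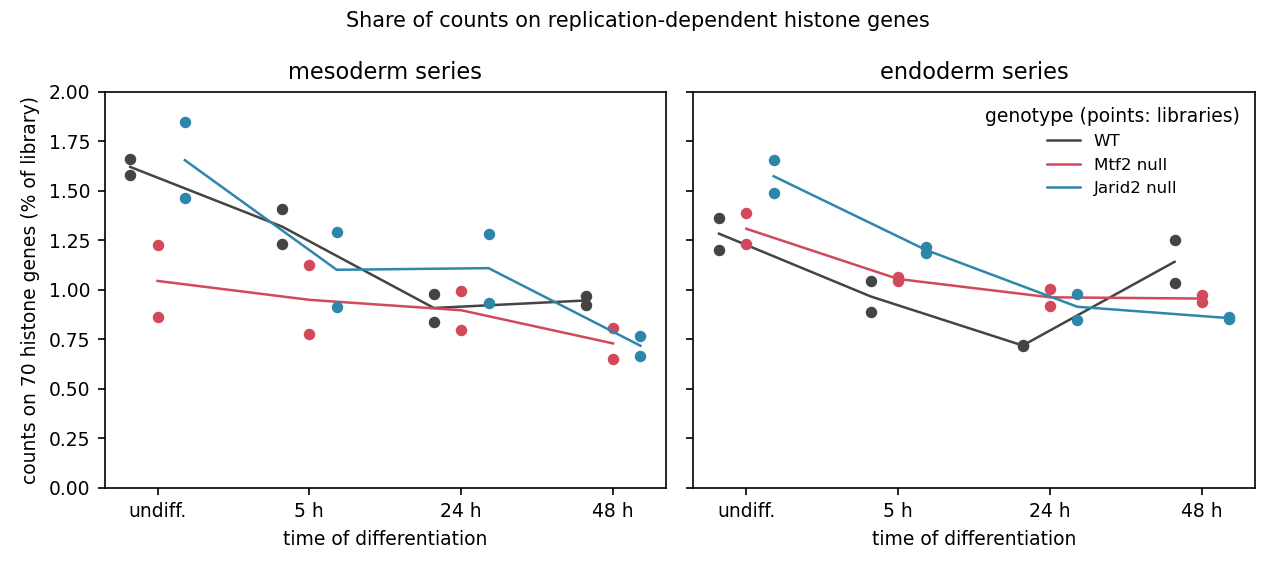
Percent of each library's counts on the 70 histone genes (vertical axis) by time in the mesoderm and endoderm series (horizontal axis); each point is 1 library, colours mark WT, Mtf2 null and Jarid2 null. WT mesoderm libraries go from 1.66% and 1.58% in UD cells to 0.968% and 0.925% at 48 h, and WT endoderm libraries turn up from 0.722% and 0.717% at 24 h to 1.03% and 1.25% at 48 h.

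Gene by gene the fall to 48 h in WT mesoderm was broad. A gene was called where its log2 fold change was beyond 1 in either direction and its p from edgeR's quasi-likelihood test, adjusted by Benjamini-Hochberg, was under 0.001. By that rule 17 of 69 members were lower at 48 h than in UD cells and 0 higher, when 3.08% of all genes were called lower. At an adjusted p under 0.05 and any size, 52 were lower and 0 higher, when 14.6% of all genes were lower. The median log2 change of the members was -0.96, and by class it ran from -0.84 for H1 to -1.07 for H2A. The count of calls rested on all 4 libraries: it was 7 without the first and 2 without the second library at 48 h, and 4 and 7 without the first and second UD library. Without the filter on low counts it was 33.

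The H2A gene Hist1h2ae was among the members called and fell by more than the median member. It measured 176 and 172 CPM in UD cells and 60.4 and 60.8 at 48 h, with no overlap (log2 change -1.52 ± 0.25 SE, edgeR adjusted p = 7.84e-05). Hist1h4i, an H4 gene, went from 260 and 251 CPM to 102 and 101 (-1.33 ± 0.23, adjusted p = 0.000136). The abundant linker histone gene Hist1h1a fell from 716.8 and 801.8 CPM to 383.7 and 405.2. The testis H2A gene Hist1h2aa went from 5.02 and 5.36 CPM to 0.587 and 0.407 (-3.34 ± 0.39, adjusted p = 1.70e-06).

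No single step of the WT mesoderm course called a member by edgeR. From UD to 5 h, 10 members had an unadjusted p under 0.05 and DESeq2 called 1, when edgeR called 1.84% of all genes lower and 2.29% higher. From 5 h to 24 h, 50 members had such a p, all lower, and DESeq2 called 1; edgeR called 0.92% of all genes lower and 3.49% higher. Between 24 h and 48 h, 6 members did and DESeq2 called 0, with 1.74% of all genes lower and 2.41% higher by edgeR. The share of all genes with an unadjusted p under 0.05 is not given, here or below. Such counts therefore have no background.

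In WT endoderm the path had a turn. Between UD and 5 h 3 members were called lower (background 1.13%), Hist1h1t, Hist3h2ba and Hist1h2ad, and 29 were lower at an adjusted p under 0.05 (12.4% of all genes). Hist3h2ba, an H2B gene, went from 15.3 and 21.5 CPM to 5.55 and 6.61 (-1.60 ± 0.24, edgeR adjusted p = 5.88e-05). Hist1h1t moved from 9.74 and 15.0 CPM to 2.78 and 3.93. From 5 h to 24 h 41 members were lower at an adjusted p under 0.05 and 0 higher (8.58% of all genes lower), and 1, Hist1h2aa, was called (0.737%). The 3 calls at 5 h became 5 without the first UD library and 0 without the second UD or the first 5 h library, and Hist1h2aa was not called without either 24 h library or the second 5 h library.

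From 24 h to 48 h the direction in WT endoderm was opposite. At an adjusted p under 0.05, 55 of 69 members were higher and 0 lower, when 10.1% of all genes were higher. They came from every class: 5 of 6 H1, 13 of 19 H2A, 16 of 19 H2B, 11 of 12 H3 and 10 of 13 H4 genes. The median log2 change was 0.63, so that only Hist3h2ba and Hist1h1c passed the stricter rule (2.2% of all genes called higher). Hist3h2ba rose from 3.56 and 2.62 CPM to 13.9 and 15.2 (2.24 ± 0.26, edgeR adjusted p = 2.18e-06). Hist1h1c rose from 227 and 240 CPM to 381 and 562 (1.01 ± 0.16, adjusted p = 6.96e-05). Without the first WT library at 48 h 8 members were called, and without any other of the 4 libraries 1.

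Genes of the cell cycle were read beside this rise. Of 25 listed G1/S and S phase genes, 0 were higher and 2 lower at an adjusted p under 0.05 between 24 h and 48 h in WT endoderm (median log2 change -0.08). Of 19 G2/M genes 1 was higher and 5 lower (-0.22). Over this step 10.1% of all genes were higher. The share of all genes that were lower is not given, so the lower counts have no background here. Of 14 genes for histone gene transcription and 3′ processing, 0 were higher and 1 lower. Over UD to 48 h in WT mesoderm, 2 G1/S genes were higher and 10 lower (median -0.27), beside the 52 histone genes that were lower. The share of all genes lower over that course stands above with the histone genes, and the share higher is not given. Slbp stood at 92.2 and 83.1 CPM in UD cells of the mesoderm series and at 63.6 and 58.4 at 48 h. Whether cell cycle composition takes part in the histone changes was not tested.

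Over the whole course from UD to 48 h, WT endoderm had 2 members called lower, Hist1h1t and Hist1h2an, and 0 higher (3% of all genes called lower), and 0 were called without the first 48 h or the second UD library. At an adjusted p under 0.05, 26 were lower and 2 higher (14.9% and 19.9% of all genes). The series differed in single genes: in a joint fit of all 48 libraries the WT change to 48 h was higher in endoderm than in mesoderm for Hist1h2ba by 3.05 (log2, edgeR adjusted p = 0.00256), Hist1h2aa by 2.10, Hist1h2ag by 1.18 and Hist1h2ae by 1.11. The testis H2B gene Hist1h2ba went from 3.25 and 3.49 CPM to 0.326 and 0.326 in WT mesoderm, and from 2.27 and 3.74 to 2.51 and 2.45 in WT endoderm. These 4 members passed an adjusted p under 0.05 (2.41% of all genes) and 0 the stricter rule (1.35%), while 36 had an unadjusted p under 0.05. The count of 36 has no background among all genes here.

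**Figure D2:**
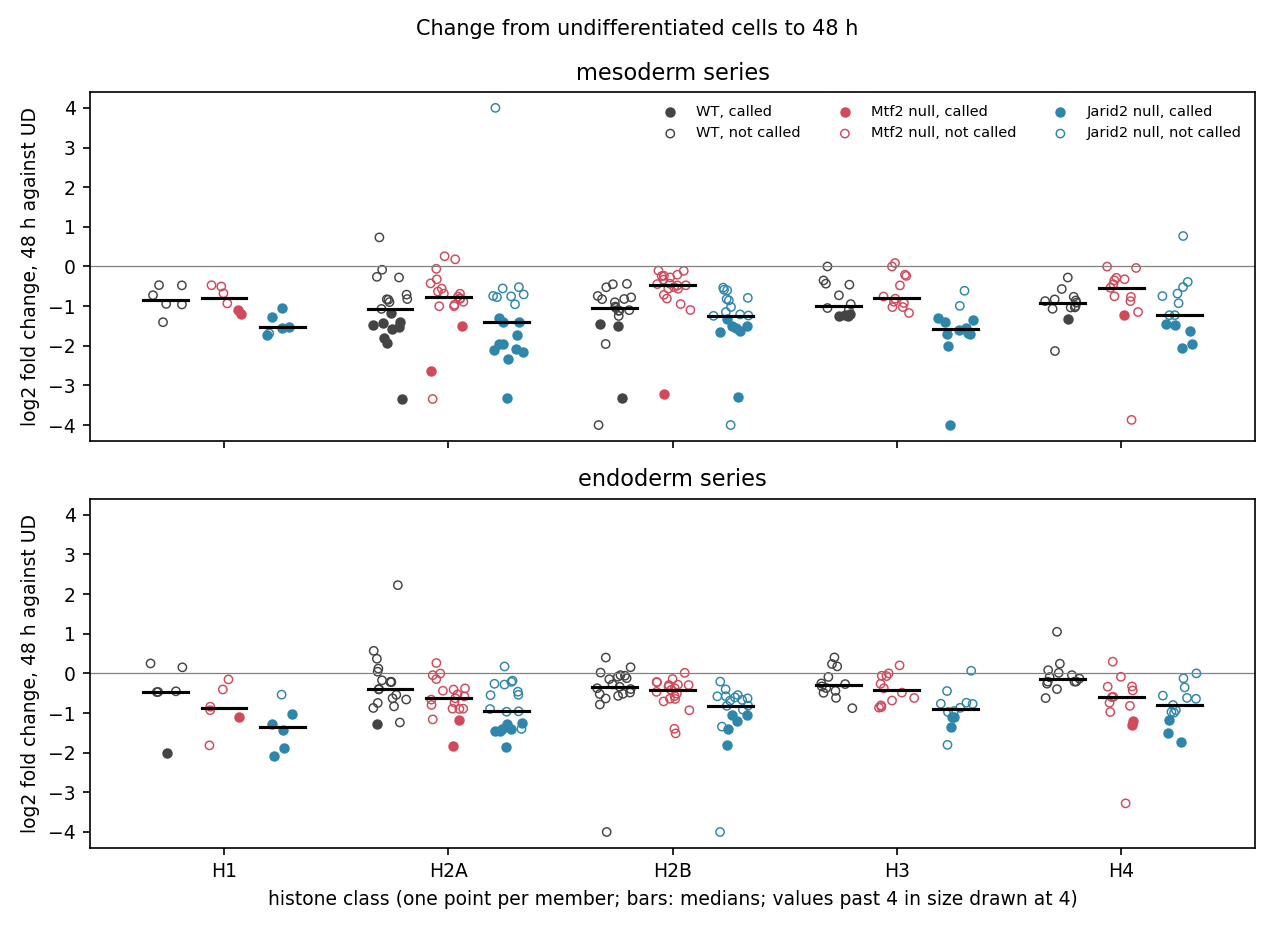
Log2 change from UD to 48 h (vertical axis) of each histone gene tested, by class (horizontal axis), in each genotype and series; each point is 1 gene. Medians over the members are -0.96 in WT mesoderm, -0.26 in WT endoderm, -1.36 in Jarid2 null mesoderm and -0.91 in Jarid2 null endoderm; the lowest points are genes with few reads of their own.

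Loss of Mtf2 was examined next, at every time against WT. The members as a group showed no uniform direction. In UD cells of both series 3 members were called higher and 5 lower, when 8.09% of all genes were called higher and 6.41% lower, with a median log2 difference of -0.09. Without TMM factors, which scale libraries by a trimmed mean of their gene ratios, the split in UD cells was 1 higher and 9 lower. In mesoderm 3 were higher and 2 lower at 5 h (background 3.45% and 4.11%), 2 and 2 at 24 h (2.78% and 2.94%) and 3 and 2 at 48 h (3.76% and 3.06%). In endoderm 6 were higher and 2 lower at 5 h (3.57% and 4.03%), 14 and 2 at 24 h (3.57% and 3.01%), and 3 and 3 at 48 h (6.37% and 4.17%). Without the second Mtf2 null library 3 members were called at 5 h of mesoderm, and 2 without either WT library. At 48 h of mesoderm 2 were called without the first Mtf2 null or the second WT library, and 3 without the first WT library.

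A set of 4 members was called in the same direction in all 7 comparisons: Hist1h2al and Hist1h4i were lower and Hist1h2bm and Hist3h2bb-ps higher. Hist1h2an was called higher in 5. Hist1h2al and Hist1h4i were also called in all 7 under every alternative run. Hist1h2bm was not called in UD cells without TMM factors (log2 difference 0.82), without the filter on low counts (1.00), or when either WT library or the second Mtf2 null library of the endoderm series was left out. It was also not called at 5 h of mesoderm without either WT or the second Mtf2 null library, nor at 48 h without the second WT or the first Mtf2 null library. Hist3h2bb-ps was not called at 5 h, 24 h or 48 h of mesoderm without either WT library or 1 of the Mtf2 null libraries, nor without the first WT library at 5 h or the second at 48 h of endoderm. Hist1h2an was not called without any of the 4 libraries at 48 h of mesoderm, nor at 5 h without either WT or the second Mtf2 null library. The Mtf2 null and Jarid2 null comparisons share their WT libraries. Beyond them, 2 members were called higher in 2 comparisons, 1 in 3 and 8 in 1, and 4 were called lower in 1. In UD cells the other calls were lower Hist1h1t (-1.75 ± 0.25, edgeR adjusted p = 2.6e-05), the H2B gene Hist2h2bb (-1.45 ± 0.16) and the H4 gene Hist4h4 (-1.25 ± 0.21), and higher Hist1h4j (1.21 ± 0.19). Hist1h4j was at 0.74 ± 0.28 and not called within the UD libraries of the mesoderm series alone, and at 1.68 ± 0.14 and called within those of the endoderm series; without TMM factors its joint difference was 0.99 and not called. At 48 h of endoderm the third member called lower was Hist1h2bq (-1.19 ± 0.25, adjusted p = 0.000598), whose coding sequence is that of Hist1h2br and whose level is therefore uncertain.

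Hist1h2al, the H2A pseudogene shown above, was close to absent. Its level ran from 16.1 to 50.6 CPM over the 16 WT libraries (median 26.9) and from 17.2 to 39.9 over the 16 Jarid2 null libraries. In the 16 Mtf2 null libraries it was between 0 and 0.514 CPM. In UD cells of the mesoderm series 778 counts over the 2 WT libraries stood against 2 over the Mtf2 null libraries, a ratio of 404 with a 95% counting interval of 112 to 3340. At 24 h and 48 h of mesoderm the Mtf2 null libraries had 0 counts, which with a floor of 3 counts over the group made Hist1h2al at least 237-fold and at least 253-fold lower. In the endoderm series, 444 WT counts at 48 h stood against 3 (ratio 207, interval 70.5 to 1010).

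A gene that differs from its copy at 2 bases in 339 has to be read with that copy. Hist2h2aa1 and Hist2h2aa2 reached 210 to 420 and 123 to 248 CPM in WT mesoderm libraries, and 165 to 350 and 117 to 235 in Mtf2 null mesoderm libraries. In the endoderm series they reached 179 to 301 and 106 to 203 CPM in WT, and 411 to 627.2 and 0 to 89.9 in Mtf2 null libraries. The sum of the 3 loci was 391 to 719 CPM in WT and 307 to 550 in Mtf2 null mesoderm libraries, and 324 to 525 and 482 to 694 in endoderm. The call of Hist2h2aa1 as higher in Mtf2 null endoderm at 24 h (1.32 ± 0.12, edgeR adjusted p = 3.42e-08) therefore stood beside a lower Hist2h2aa2, and the division between identical copies is uncertain.

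Hist1h4i, an H4 gene with 77.6% of its 75-base words to itself, was lower at every time. WT libraries ran from 88.5 to 260 CPM (median 122) and Mtf2 null libraries from 20.8 to 66.1 (median 28.8), with no overlap. In mesoderm at 48 h the WT libraries had 102 and 101 CPM and the Mtf2 null libraries 23.8 and 20.8 (log2 difference -2.19 ± 0.25, edgeR adjusted p = 1.40e-06). In endoderm at 48 h they had 122 and 177 against 24.4 and 22.2 (-2.68 ± 0.17, adjusted p = 4.97e-11). Over the 7 comparisons the difference ranged from -2.68 to -1.70.

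Hist1h2bm, an H2B gene with 83.1% of its words to itself, was higher. WT libraries lay between 31.1 and 94.4 CPM and Mtf2 null libraries between 109 and 220, again with no overlap. In endoderm at 24 h the values were 33.8 and 31.1 CPM in WT against 169 and 145 (2.27 ± 0.12, edgeR adjusted p = 2.96e-12), and in UD cells of both series the difference was 1.05 ± 0.15 (adjusted p = 3.56e-05). Within the UD libraries of the mesoderm series alone it was 0.68 ± 0.25 and not called, and within those of the endoderm series 1.39 ± 0.11 and called.

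Hist3h2bb-ps is a processed H2B pseudogene (chr11:58954048-58954512, -) that shares words only with Hist3h2ba. It stood at 0.0730 to 2.64 CPM in WT and 1.90 to 9.33 in Mtf2 null libraries, so the full ranges overlapped, but at each of the 8 series and times both Mtf2 null libraries were above both WT libraries. Its log2 differences ran from 1.89 to 4.15. Hist1h2an, an H2A gene with only 15.4% of its words to itself and 4 coding differences from Hist1h2ad, was at 4.72 to 27.1 CPM in WT and 19.2 to 67.4 in Mtf2 null libraries. It was above WT in both libraries at 7 of 8 series and times and was called in all 3 timed endoderm comparisons and at 5 h and 48 h of mesoderm.

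**Figure D3:**
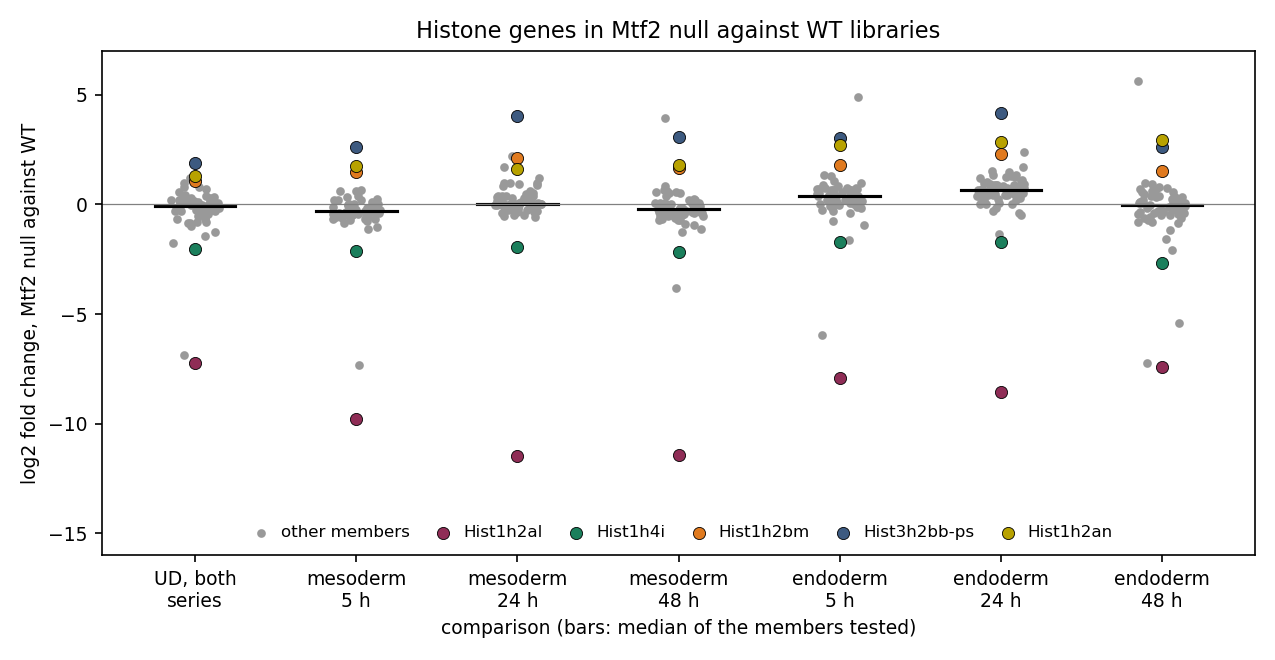
Log2 difference between Mtf2 null and WT libraries (vertical axis) of each histone gene in the 7 comparisons (horizontal axis); grey points are single genes, bars the median over the members, and coloured points the 5 recurring members. Hist1h2al and Hist1h4i lie below and Hist1h2bm, Hist3h2bb-ps and Hist1h2an above the line at 0 throughout, while the medians run from -0.31 to 0.66.

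**Figure D4:**
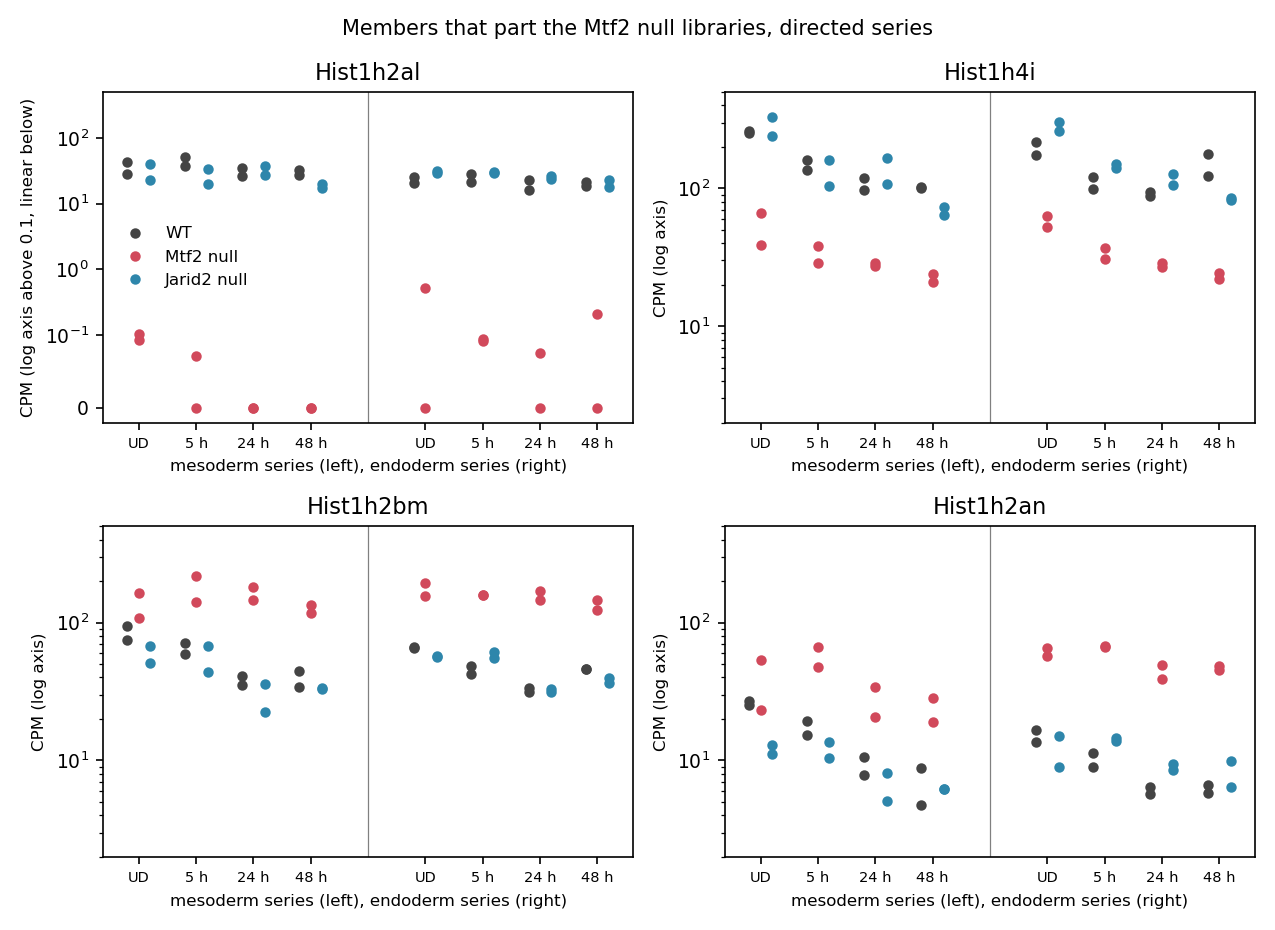
CPM (vertical axis) of recurring members in each library by series and time (horizontal axis), with colours for WT, Mtf2 null and Jarid2 null; the axis is logarithmic, and for Hist1h2al linear below 0.1. Mtf2 null libraries lie at 0 to 0.514 CPM for Hist1h2al, where Jarid2 null libraries lie at 17.2 to 39.9 among the WT libraries.

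The same members were then read in the bulk EB libraries, where each line has 1 value per day and the WT lines are the matched parents. Where more than 1 column was deposited for a line and day, that value is the mean of its columns. Hist1h2al was at 0 to 0.36 CPM on all 4 days in JM8 and Pcl1-3 WT EBs and at 27.5 to 51.6 in J1 WT EBs. Hist1h4i was at 53.7 to 128 CPM in JM8 and Pcl1-3 WT and at 136 to 356 in J1 WT, and Hist1h2bm at 133 to 276 against 61.8 to 104. Hist1h2an stood at 26.9 to 82.7 CPM in the former lines and 6.79 to 23.5 in J1. Hist3h2bb-ps separated the lines less, at 18.5 to 55.6 CPM in JM8, 3.73 to 13.7 in Pcl1-3 and 2.20 to 8.12 in J1. For the first 4 members, WT lines thus differed from each other in the directions in which Mtf2 null differed from E14 WT in the directed series, with 1 value per line and day and no test.

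In the mutant EB libraries the targeted gene was no clear check of the label. Mtf2 was at 178 to 328 CPM in the libraries labelled Mtf2 null, on each day below Pcl1-3 WT (316 to 439) and far above the 30.1 to 38.1 of the directed Mtf2 null libraries. Among the day 0 EBs, those labelled Jarid2 null had the least Mtf2 (135 CPM). Eed was at 65.02 to 212 CPM in the libraries labelled Eed null and at 53.1 to 232 in J1 WT. The library labelled Mtf2 null on day 2 and the library labelled Jarid2 null on day 0 also stood apart from the other days of their label in the line-dependent histone genes, and whether labels were exchanged was not tested. Both have values that are means over columns, and the columns were not compared with each other. Those labelled Mtf2 null had 7.31 CPM of Hist1h2al on day 2 and 25.2 to 40.9 on the other days, and Hist1h2bm was at 211 CPM against 53.9 to 86.2. Those labelled Jarid2 null had 10.8 CPM of Hist1h2al on day 0 and 29.7 to 47.2 on the other days, and Hist1h2bm was at 205 CPM against 55.01 to 106. Libraries labelled Eed null had 47.7 to 57.9 CPM of Hist1h2al. Set against Pcl1-3 WT, the libraries labelled Mtf2 null had more Hist1h2al and less Hist1h2bm on each day. They also had less Hist1h2an on each day, at 8.63 to 64.5 CPM against 26.9 to 69.6. For these 3 members the directions were opposite to those of Mtf2 null against WT in the directed series.

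In the single-cell libraries, which all carry the E14 label and have 1 library per genotype and day, the targeted gene followed the label: Mtf2 was at 44.4 to 51.7 CPM in Mtf2 null and at 285 to 686 in WT cells. Hist1h4i, lower in every directed Mtf2 null comparison, was here higher in Mtf2 null than in WT cells on all 4 days. It was at 17.7 CPM against 2.02 on day 0, 18.8 against 6.73 on day 4, 17.9 against 5.55 on day 7 and 34.9 against 2.78 on day 10. Those values rest on 52 to 92 counts in Mtf2 null and 5 to 20 in WT libraries. Jarid2 null libraries had 38 to 63 counts of Hist1h4i and Eed null libraries 8 to 104, also above WT on each day. A level above WT was therefore not particular to Mtf2 null cells. Hist1h2al was at 2.07 to 6.45 CPM in Mtf2 null and 1.15 to 5.93 in WT cells, and Hist1h2an at 4.16 to 10.4 and 4.32 to 10.7, so both overlapped. Hist1h2bm reached at most 0.22 CPM in Mtf2 null and 1.11 in WT cells.

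**Figure D5:**
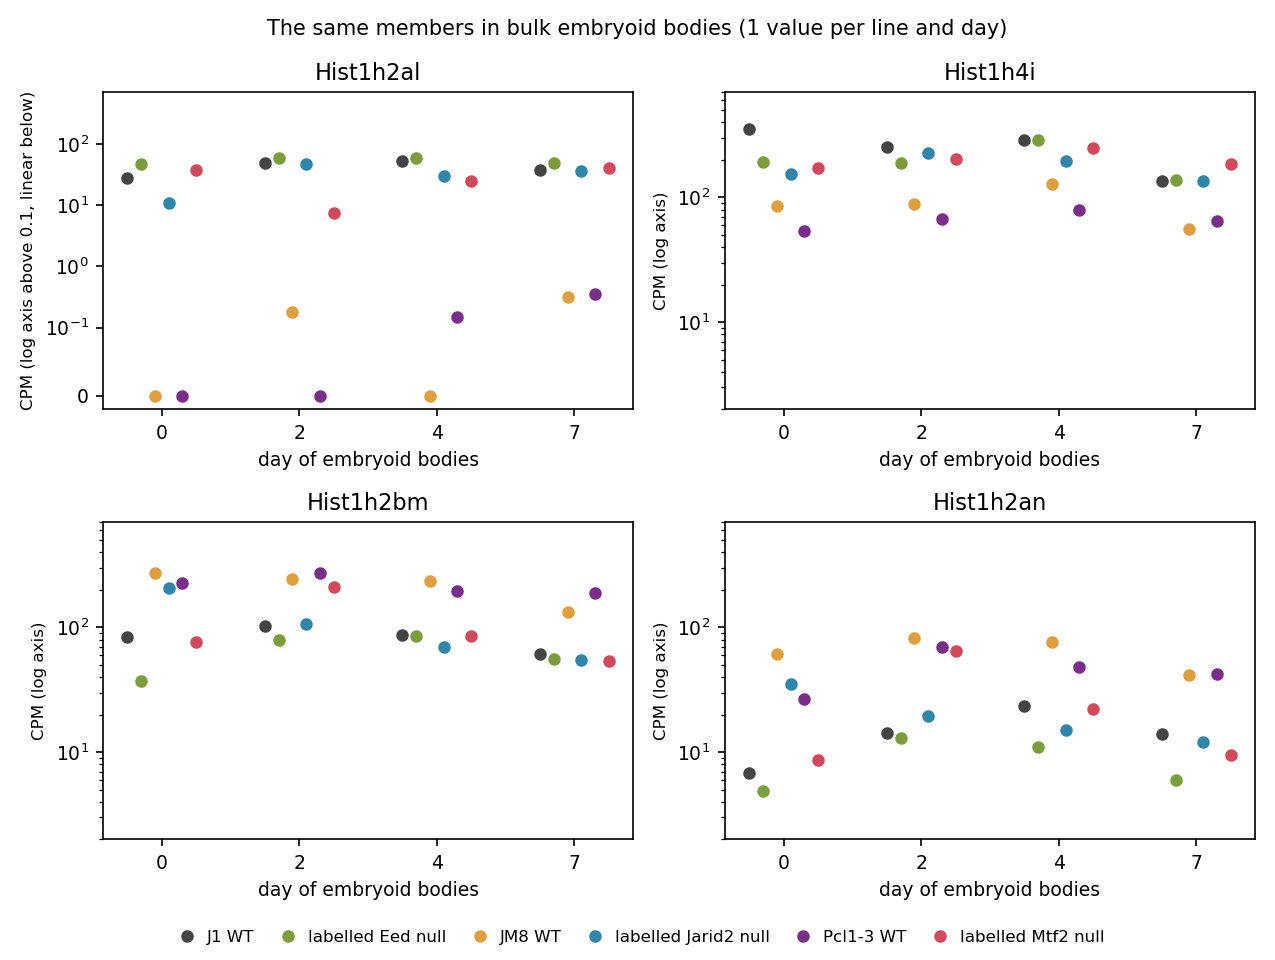
CPM (vertical axis) of Hist1h2al, Hist1h4i, Hist1h2bm and Hist1h2an in bulk EBs by day (horizontal axis), 1 point per line and day; the axis is logarithmic, and for Hist1h2al linear below 0.1. JM8 and Pcl1-3 WT sit at 0 to 0.36 CPM for Hist1h2al, and J1 WT at 27.5 to 51.6.

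Beyond the recurring members, the endoderm series showed a wider shift, largest at 24 h. In the UD libraries of this series alone, described below, the median difference was also above 0. At an adjusted p under 0.05, 47 of 69 members were higher in Mtf2 null than in WT endoderm at 24 h and 2 lower, when 13.8% of all genes were higher and 12.4% lower; the median log2 difference was 0.66. At 5 h, 30 were higher and 4 lower (15.7% of all genes higher and 15.3% lower; median 0.37), and at 48 h 15 were higher and 18 lower (20.4% and 17.5% of all genes; median -0.04). By class, 0 of 6 H1 genes were higher and 5 lower at 48 h (median -0.64), whereas 2 of 12 H3 genes were higher and 1 lower (median 0.18). The H1 genes held 13.0% to 16.5% of the histone counts in the 8 Mtf2 null endoderm libraries and 18.0% to 20.6% in the 8 WT endoderm libraries, without overlap, while in mesoderm they held 17.6% to 23.1% and 16.8% to 22.0%. Jarid2 null endoderm libraries held 21.4% and 18.1% in UD cells, 17.1% and 16.7% at 5 h, 16.3% and 16.85% at 24 h, and 15.2% and 15.4% at 48 h. From 5 h on these also lay below all WT endoderm libraries, so a low H1 share was not particular to Mtf2 null cells. Hist2h2ac, an H2A gene, measured 32.2 and 31.4 CPM in WT against 106 and 99.9 at 24 h (1.69 ± 0.12, edgeR adjusted p = 3.78e-10). Hist1h4j, an H4 gene, measured 50.2 and 49.5 against 147 and 138 (1.52 ± 0.14, adjusted p = 3.39e-08). Of the 6 linker histone genes 0 were called at 24 h and 3 were higher at an adjusted p under 0.05. Over the same 24 h comparison, 1 of 25 G1/S genes was higher and 7 lower.

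Markers moved with these comparisons. At 24 h of endoderm the 5 primitive streak markers summed to 14.5 and 13.3 CPM in Mtf2 null libraries against 37.7 and 34.4 in WT, and the 4 definitive endoderm markers to 12.5 and 9.03 against 2.40 and 1.21. The 8 trophoblast and fibroblast markers summed to 43.97 and 43.35 CPM against 22.4 and 21.7 at that time, and the 8 pluripotency markers to 2356 and 2405 against 2601 and 2603. At 48 h the definitive endoderm markers summed to 56.7 and 48.2 CPM in Mtf2 null endoderm libraries against 0.779 and 0.846 in WT, and the mesoderm markers to 57.6 and 55.4 in Mtf2 null mesoderm libraries against 7.31 and 7.65. Each set was also higher in the other series. The mesoderm markers summed to 47.45 and 45.25 CPM in Mtf2 null endoderm at 48 h, against 1.64 and 0.846 in WT. The definitive endoderm markers summed to 33.9 and 25.9 CPM in Mtf2 null mesoderm at 48 h, against 1.11 and 2.36 in WT. The part of these markers in the histone differences was not tested.

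The shares per library differed between the series. Mtf2 null mesoderm libraries held 0.861% and 1.23% in UD cells, 0.776% and 1.12% at 5 h, 0.798% and 0.997% at 24 h and 0.806% and 0.653% at 48 h. Against WT these were 0.644 times in UD cells and 0.771 times at 48 h without overlap, and overlapped at 24 h. Mtf2 null endoderm libraries held 1.23% and 1.39%, 1.07% and 1.05%, 1.01% and 0.920%, and 0.938% and 0.975% at the same times, 1.34 times the WT share at 24 h and 0.837 times at 48 h. With TMM-scaled totals these endoderm ratios were 1.22 in UD cells, against 1.02 by plain totals, and 1.51 at 24 h. At 48 h the mean share of TMM-scaled totals was 1.002% in Mtf2 null and 1.068% in WT endoderm, and the groups overlapped. By plain totals they did not, so the lower Mtf2 null share at 48 h of endoderm depended on the scaling. In the UD libraries of the mesoderm series alone 0 members were called higher and 7 lower (6.47% and 4.68% of all genes), with a median of -0.45; 2 were called without the first Mtf2 null library and 4 without either WT library. In those of the endoderm series alone 7 were higher and 4 lower (6.23% and 4.77%), with a median of 0.33, and 7 were called without the second Mtf2 null library. The joint fit called 0 members as different between the series in UD cells (0.0051% of all genes), and 40 had an unadjusted p under 0.05, all higher in the endoderm series. The count of 40 has no background among all genes here. UD cells had received no differentiation factor, so a UD difference between series is one between sets of libraries.

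The change from UD to 48 h was also compared between genotypes. In mesoderm 0 members differed between Mtf2 null and WT in this change, where 10 had an unadjusted p under 0.05 and DESeq2 called 0 (1.05% of all genes higher, 1.66% lower by edgeR). In endoderm 2 were called, both lower (2.56% of all genes): Hist1h4j (-1.10 ± 0.19, edgeR adjusted p = 0.00029) and Hist1h3e, an H3 gene (-1.09 ± 0.22, adjusted p = 0.000932). Hist1h4j went from 235 and 282 CPM to 113 and 114 in Mtf2 null cells and from 73.3 and 87.5 to 69.98 and 80.88 in WT cells. Hist1h3e went from 490 and 592 CPM to 332 and 341 and, in WT, from 260 and 243 to 270 and 396. The 2 calls became 5 without the first WT library at 48 h and 0 or 1 without any other of the 8 libraries.

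In Jarid2 null cells no member was called at any time by edgeR. In UD cells 0 of 68 were called when 1.1% of all genes were, 18 had an unadjusted p under 0.05, and DESeq2 called 0. The timed comparisons in mesoderm likewise gave 0 of 69 at 5 h (background 0%, 4 unadjusted), 24 h (1.97%, 7 unadjusted) and 48 h (0.169%, 21 unadjusted), and those in endoderm 0 of 69 at 5 h (0.0363%, 34 unadjusted), 24 h (0.0312%, 43 unadjusted) and 48 h (0.125%, 37 unadjusted), with 0 calls by DESeq2 in each. The 37 at 48 h of endoderm were all lower, and the 43 at 24 h and 34 at 5 h all higher. The percentages beside them are shares of genes called by the stricter rule. No share of all genes is given for an unadjusted p under 0.05, so these counts have no background. At an adjusted p under 0.05, 14 members were lower and 0 higher at 48 h in endoderm (3.5% of all genes lower), 4 of them among the 6 H1 genes. In UD cells of the endoderm series alone 17 were higher and 1 lower (5.67% and 3.65% of all genes). The histone share in Jarid2 null endoderm was 1.23 times that of WT in UD cells, 1.24 times at 5 h, 1.27 times at 24 h and 0.751 times at 48 h, with no overlap at any of the 4 times. In mesoderm it was 0.759 times that of WT at 48 h with no overlap, and the groups overlapped in UD cells (1.02), at 5 h (0.835) and at 24 h (1.22). Without the first WT library at 48 h of endoderm 5 members were called, and without the first Jarid2 null library at 24 h of endoderm 1. The values at 48 h of endoderm rest on the Jarid2 null libraries whose column names give an earlier hour.

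The fall to 48 h was steep in Jarid2 null cells, whose hour at 48 h of endoderm is uncertain as said above. Their mesoderm libraries held 1.85% and 1.46% of counts on histone genes in UD cells and 0.768% and 0.668% at 48 h (ratio 0.434), and their endoderm libraries 1.49% and 1.66% and then 0.864% and 0.851% (ratio 0.545), with no overlap in either. From UD to 48 h, 38 of 69 members were called lower and 0 higher in mesoderm (3.61% of all genes lower; median -1.36), and 23 and 0 in endoderm (3.6%; median -0.91). For Mtf2 null cells 6 were lower in mesoderm (2.33%; median -0.63) and 5 in endoderm (2.96%; median -0.57), with 0 higher. The 38 became 20 and 16 without the first and second 48 h library and 17 without the first UD library. The 6 became 0 without the second UD or second 48 h library and 13 without the filter on low counts, and the 5 became 10 and 3 without the first and second UD library.

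Tested as a difference in change from UD to 48 h, 4 members had a lower change in Jarid2 null than in WT endoderm (0.332% of all genes) and 0 a higher one: Hist1h1d (-1.54 ± 0.24, edgeR adjusted p = 0.00059), Hist1h2ae (-1.45 ± 0.23, adjusted p = 0.000758), Hist1h1c (-1.41 ± 0.22, adjusted p = 0.000643) and Hist1h4i (-1.34 ± 0.22, adjusted p = 0.000801). Hist1h1d went from 1031 and 796 CPM to 354 and 395 in Jarid2 null cells, and from 618 and 582 to 547 and 881 in WT cells. Hist1h1c went from 944 and 835 to 248 and 236, against 595 and 712 to 381 and 562. At an adjusted p under 0.05, 26 members had a lower change and 0 a higher change (3.31% of all genes lower; median -0.65). In mesoderm 0 were called, 14 had an unadjusted p under 0.05, and DESeq2 called 0 (0.00545% of all genes lower, 0.049% higher). The 4 calls became 13 without the first WT library at 48 h, 2 without the second Jarid2 null UD library, and 0 without any other of the 8 libraries. DESeq2 called 15 members lower, and edgeR without the filter on low counts 17. The WT endoderm libraries at 48 h had histone shares of 1.03% and 1.25%. The Jarid2 null endoderm libraries at 48 h are those of uncertain hour, and the part of a difference in time was not tested.

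Histone genes outside the replication-dependent set were read in parallel. The list held 11 genes taken as replication-independent variants. Of these 11, Mtf2 null cells had 1 called higher in UD cells (H2afy; 8.09% of all genes called higher), 1 at 5 h of endoderm (H2afj; 3.57%), 4 at 24 h of endoderm (H1f0, H1fx, H2afj and H2afy; 3.57%) and 3 at 48 h of endoderm (H1f0, H2afy and H2afy2; 6.37%), with 0 lower in each. In mesoderm 1 was higher and 1 lower at 5 h (H2afj and H2afy2; 3.45% and 4.11%), 2 were higher at 24 h (H1f0 and H2afy; 2.78%) and 1 at 48 h (H2afy; 3.76%), with 0 lower at both later times. In Jarid2 null cells the only call in 7 comparisons was a higher H1f0 at 24 h of mesoderm (0.735% of all genes called higher). H2afy, which encodes macroH2A1, measured 20.6 and 17.6 CPM in WT and 93.0 and 75.7 in Mtf2 null endoderm at 48 h (2.14 ± 0.12, edgeR adjusted p = 1.13e-11). H1f0, the linker histone of resting and differentiated cells, measured 19.2 and 17.6 against 51.2 and 44.2 at 24 h of endoderm (1.37 ± 0.24, adjusted p = 0.000152). In WT mesoderm H1f0 went from 54.7 and 56.4 CPM in UD cells to 15.0 and 13.1 at 5 h (-1.98 ± 0.22, adjusted p = 2.57e-06), and to 44.4 and 49.2 at 48 h.

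Of the 14 genes for histone gene transcription and 3′ processing, 1 was called lower in Mtf2 null cells, at 5 h of mesoderm, when 4.11% of all genes were. In the other 6 Mtf2 null comparisons, which called 2.78% to 8.09% of all genes in a direction, 0 were called, and 0 in the 7 Jarid2 null comparisons, which called 0% to 1.97% of all genes. The called gene was Zc3h12a, which encodes an RNase, at 18.2 and 17.5 CPM in WT against 8.53 and 9.23 in Mtf2 null mesoderm at 5 h (-1.01 ± 0.18, edgeR adjusted p = 0.000235). Upf1, the helicase that takes part in histone mRNA decay, rose between UD and 5 h in WT mesoderm from 141 and 95.1 CPM to 338 and 362 (1.57 ± 0.15, adjusted p = 4.72e-07) and in WT endoderm from 128 and 94.4 to 271 and 278.

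The libraries held 9112116 to 16898498 counts. Gm26917, an annotated noncoding gene, took 11.5% to 21.4% of them and the 7SL RNA gene Rn7s1 0.7% to 4.2%, so a histone share also moves with these. Scaling by the trimmed mean of M values (TMM) used factors between 0.833 and 1.16. In simulated counts at the depth of the UD, mesoderm 48 h and endoderm 48 h comparisons of Mtf2 null with WT, the call rule recovered 94, 88 and 89 of 100 genes changed 4-fold. Of 100 genes changed 2-fold, which lie on the fold threshold itself, it recovered 44, 33 and 24, and an adjusted p under 0.05 recovered 88, 76 and 65.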

How the data were processed

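Expression was measured in 48 libraries of rRNA-depleted RNA from directed differentiation and, for levels only, in 24 bulk and 16 single-cell EB libraries, both with polyA RNA in their labels. Per the labels and the methods, the authors made estimated counts per Ensembl gene with Salmon on GRCm38 (paired reads of 75 bases), deposited size-factor normalized signal values for the bulk EBs, and deposited read counts per gene and well from Bowtie2 and HTSeq for the single cells. The Salmon version is not given in the sources used here. Columns of wells were summed per library, and the EB values were rescaled to CPM. Bulk EB columns of the same line and day were rescaled singly and then averaged.

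The estimated counts were rounded to whole numbers and tested with edgeR 4.0.16 (R 4.3.3) by its quasi-likelihood test with TMM factors, after a filter on low counts (filterByExpr, minimum count 10, minimum total 15), in one fit of the 12 UD libraries, one of each series of 24 and one of all 48. P-values were adjusted by Benjamini-Hochberg over all genes tested. A call needed a log2 fold change beyond 1 in either direction with an adjusted p under 0.001; a second rule took an adjusted p under 0.05 at any size. Standard errors were taken from the log2 fold change and F. CPM use plain library totals; depth was 9112116 to 16898498 counts. Intervals (95%) and the floor of 3 counts cover counting error only. The fit was tested on simulated data. Alternatives were DESeq2 1.42.0, no TMM factors, no filter, a replicate block and leaving out each library; comparisons of UD with 48 h, of each series alone in UD cells and between series were added after seeing the data.

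Named were the 3 most abundant members of each class, members called in a genotype comparison or interaction (the 4 largest each way where more than 8), the 3 largest each way in WT time comparisons, and called genes of the variant and processing lists; Hist1h1a over time, Slbp and the members of the comparisons between series were named after their values were seen. The members and lists were chosen with earlier results of these data known. Motifs and 75-base words were searched in GENCODE M21 transcripts and RefSeq promoters. Replicate numbers did not pair the libraries.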

Additional observations from a re-analysis of the deposited data

Results flagged for a closer look

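In groups of 4 UD libraries, 4 of 93 groups tested had a library far from the other 3 by Dixon's ratio of gap to range, and chance gives about 1 in 20. Hist1h2aa in WT cells had 2.84 CPM in 1 library against 5.02 to 5.36 (ratio 0.866). Hist1h2ad in Mtf2 null cells had 61.2 against 108 to 117 (0.843). Hist1h1t in Jarid2 null cells had 4.9 against 8.36 to 8.69 (0.913), and Hist1h2ap in Jarid2 null cells 534 against 364 to 391 (0.838).

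The change from UD to 48 h in endoderm differed from WT by a test of the difference itself for 6 members. In Mtf2 null cells the log2 difference in change was -1.09 for Hist1h3e and -1.10 for Hist1h4j. In Jarid2 null cells it was -1.41 for Hist1h1c, -1.54 for Hist1h1d, -1.45 for Hist1h2ae and -1.34 for Hist1h4i.

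Between the series, the change from UD to 48 h was higher in endoderm than in mesoderm at an edgeR adjusted p under 0.05 for Hist1h2aa (2.10 in WT and 1.92 in Jarid2 null cells), Hist1h2ae (1.11), Hist1h2ag (1.18) and Hist1h2ba (3.05) in WT cells. The difference between Jarid2 null and WT at 24 h was higher in endoderm for Hist2h3c2 (1.11). None of these passed the stricter rule.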

How the results depend on the processing

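Counts of called members moved with the filter on low counts and with single libraries. Without the filter, those for Mtf2 null against WT were 8 at 5 h and 8 at 48 h of mesoderm, 10 at 48 h of endoderm and 12 in UD cells of the mesoderm series alone. For Jarid2 null against WT they were 1 in UD cells, 1 at 5 h and 1 at 24 h of mesoderm and 2 at 48 h of endoderm. For the difference in change they were 3 and 5 (Mtf2 null, mesoderm and endoderm) and 1 and 17 (Jarid2 null). For WT steps they were 4, 6 and 3 in mesoderm, and 4 (5 h to 24 h) and 6 (24 h to 48 h) in endoderm. From UD to 48 h they were 33 (WT) and 13 (Mtf2 null) in mesoderm and 4 and 9 in endoderm. DESeq2 gave 15 for the Jarid2 null difference in change in endoderm, and 1 each for WT mesoderm UD to 5 h and 5 h to 24 h. Without TMM factors the Mtf2 null difference in change in endoderm had 1 and WT mesoderm UD to 5 h 1; the median log2 difference of all genes in UD Mtf2 null cells was then -0.258. With TMM-scaled totals the share ratios were 0.548 (WT mesoderm, 48 h over UD), 0.674 and 0.502 (Mtf2 null and Jarid2 null endoderm, 48 h over UD), and 1.22, 1.24 and 1.51 (Mtf2 null over WT endoderm in UD cells, at 5 h and at 24 h). Mtf2 null and WT endoderm libraries at 48 h overlapped with TMM-scaled totals and did not with plain totals.

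With 1 library left out at a time, Mtf2 null against WT gave 7 to 10 calls in UD cells, 2 to 5, 3 to 4 and 2 to 4 at 5 h, 24 h and 48 h of mesoderm, and 7 to 12, 15 to 18 and 5 to 8 in endoderm. In UD cells of the mesoderm and endoderm series alone it gave 2 to 8 and 7 to 11. Jarid2 null against WT gave 0 to 1 at 24 h and 0 to 5 at 48 h of endoderm. The difference in change in endoderm gave 0 to 5 (Mtf2 null) and 0 to 13 (Jarid2 null). The WT endoderm steps gave 0 to 5, 0 to 1 and 1 to 8. From UD to 48 h the ranges were 2 to 7 (WT), 0 to 8 (Mtf2 null) and 16 to 35 (Jarid2 null) in mesoderm, and 0 to 2, 3 to 10 and 21 to 26 in endoderm.

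Of 59 calls of named members, DESeq2 kept 59, no TMM factors 52, no filter 58 and the replicate block 58; leaving out a library kept 205 of 292, and none changed direction. The replicate block moved no count of calls by over 1.5 times: it gave 8 in UD Mtf2 null cells, 16 at 24 h of endoderm, and 14 for WT mesoderm from UD to 48 h. The numbers do not pair the libraries: of 66 correlations of deviations per series, 6 in mesoderm and 4 in endoderm were above 0.1. At the depth of the endoderm 48 h comparison, an adjusted p under 0.05 recovered 65 of 100 simulated 2-fold changes.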
